A study of Homo sapiens with 8 samples.

Results

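The FOS and JUN subunits of the transcription factor AP-1 were followed across 4 treatments of MNNG/HOS, a human osteosarcoma line derived from HOS cells that were transformed with the carcinogen MNNG. The members are FOS, FOSB, FOSL1, FOSL2, JUN, JUNB and JUND, taken as every probe to which the platform annotation gives one of these symbols. Each of the 7 genes had 1 probe, so 7 of the 47304 probes were concerned, and all 7 exceeded the lower bound of the table on at least 2 arrays and were among the 12759 genes tested. The 8 arrays fell into 4 groups of 2: JQ1 (7.5 mM as labelled) together with rapamycin (12.5 nM), JQ1 alone, rapamycin alone, and the solvent control DMSO. JQ1 displaces BET bromodomain proteins from acetylated chromatin, and rapamycin inhibits the kinase complex mTORC1. The JQ1 dose is printed with the unit of the labels, and the sources used here give no duration of treatment. Whether replicate arrays represent independent cultures is not stated, so the spread behind every p-value is that between arrays and may be purely technical.

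AP-1 is a dimer. Proteins of the JUN family pair with each other or with FOS proteins, whereas FOS proteins need a JUN partner to bind DNA, and the dimers recognise short elements close to those bound by the CREB and ATF factors. FOS, FOSB, JUN and JUNB are immediate early genes whose transcripts appear within minutes of growth factor, cytokine or stress signals and decay quickly. JUND is expressed more steadily in resting cells, and FOSL1 (also called FRA1) and FOSL2 (FRA2) rise later and persist. In bone, FOS proteins are known from mouse work to act in osteoblasts and osteoclasts, and overexpression of Fos in mice gives bone tumours.

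The values are linear intensities normalized by the authors, with a lower bound (floor) of 20 at which 55.7% to 58.6% of the probes of an array lay. The mean intensity of an array ran from 455.5 to 481.6. Of 12 osteoblast and mesenchymal markers 8 entered the test, among them VIM (28108 to 33757) and CDH11 (1066 to 3971), while RUNX2 was at the floor on 4 arrays and COL1A2, ALPL, SP7 and THY1 did not exceed the floor on 2 arrays. None of the 6 endothelial markers, 4 of 8 haematopoietic markers (CD68 and CD14 among them, PTPRC not) and 3 of 8 epithelial markers (EPCAM, KRT8 and KRT18, but not CDH1) entered. No marker of these 3 lists was called against DMSO in any treatment. Of 8 cartilage, fat and muscle markers 5 entered, among them SOX9 (334 to 634), and none was called either. Of the 8 osteoblast and mesenchymal markers 2 were called with the combination, 1 with JQ1 and 0 with rapamycin, and their names and directions are not given. Over all genes, 2.93% were called higher and 4.25% lower with the combination, and 1.06% and 1.77% with JQ1. With rapamycin 0.0235% were called either way. Whether any marker list differs from these shares was not tested. The summed intensity of the epithelial markers was 1667 to 1761 with the combination, 1593 to 1686 with JQ1 and 1282 to 1329 with rapamycin, against 1446 to 1702 in DMSO, and its part in the results was not tested. A second deposited table, of non-normalized signals, named 6 of the 8 arrays differently in its header. Matched by rank correlation (0.997 or more for the matching array, 0.98 at most for any other), the arrays which that header assigns to rapamycin, alone or with JQ1, carry the replicate number 2 in the value table. The JQ1 arrays of the header are replicate 1 of rapamycin and replicate 1 of the combination, and its DMSO array numbered 2 is replicate 1 of JQ1. The group names used here are those of the value table, which identifies its columns by sample record, and values under the other naming are given with the comparisons.

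The 250 bases upstream of the transcription start are shown for the 5 members that were called in at least 1 comparison, in which FOS, FOSB, JUN, JUNB and JUND were all higher. Sequences are those of RefSeq on GRCh38.p14, 5′ to 3′ on the strand of the gene, and 6 of the 7 members matched an entry. Capitals mark the letters TGACG (on either strand), which are the conserved part of a cyclic AMP response element, its full form TGACGTCA, and TGACATCA, the variant element known from the JUN promoter.
FOS, chr14:75278578-75278827, plus strand: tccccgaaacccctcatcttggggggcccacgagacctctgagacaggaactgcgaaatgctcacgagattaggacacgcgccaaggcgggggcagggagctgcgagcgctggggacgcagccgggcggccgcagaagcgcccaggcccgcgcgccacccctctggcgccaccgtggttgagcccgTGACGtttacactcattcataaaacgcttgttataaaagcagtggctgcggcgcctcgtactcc
FOSB, chr19:45467746-45467995, plus strand: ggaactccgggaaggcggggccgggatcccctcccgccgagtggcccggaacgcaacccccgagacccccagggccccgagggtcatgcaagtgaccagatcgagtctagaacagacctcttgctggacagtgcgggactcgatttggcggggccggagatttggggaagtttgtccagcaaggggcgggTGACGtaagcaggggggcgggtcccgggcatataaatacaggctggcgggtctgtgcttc
JUN, chr1:58784048-58784297, minus strand: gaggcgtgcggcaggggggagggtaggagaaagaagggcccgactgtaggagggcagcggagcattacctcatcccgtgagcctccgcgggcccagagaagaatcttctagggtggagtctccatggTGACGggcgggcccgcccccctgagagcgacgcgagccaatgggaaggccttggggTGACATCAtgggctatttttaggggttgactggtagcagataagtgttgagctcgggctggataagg
JUNB, chr19:12791236-12791485, plus strand: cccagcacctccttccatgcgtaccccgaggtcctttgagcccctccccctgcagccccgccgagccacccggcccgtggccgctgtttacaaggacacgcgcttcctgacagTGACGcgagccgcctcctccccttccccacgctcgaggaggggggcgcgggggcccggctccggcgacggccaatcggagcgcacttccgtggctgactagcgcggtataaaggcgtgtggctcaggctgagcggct
JUND, chr19:18281623-18281872, minus strand: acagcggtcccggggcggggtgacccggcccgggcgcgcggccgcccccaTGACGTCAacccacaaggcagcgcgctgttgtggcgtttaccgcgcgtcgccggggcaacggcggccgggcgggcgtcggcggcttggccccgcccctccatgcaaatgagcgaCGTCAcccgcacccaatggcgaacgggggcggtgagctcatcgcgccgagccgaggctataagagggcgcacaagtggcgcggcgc

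TGACG stood in all 6 promoters, that of FOSL2 included, and in 21.2% of 35116 promoter windows of the same length. Its first base lay 64 bases upstream of the start in FOS, 60 in FOSB, 123 in JUN and 137 in JUNB. The full palindrome TGACGTCA was found in JUND alone, with its first base 200 bases upstream, against 1.65% of all windows, and it contains TGACG on both strands. TGACATCA was found in JUN alone, 67 bases upstream, against 2.37% of windows. The classical AP-1 element TGACTCA (searched on both strands, 4.2% of windows) and the CArG box bound by SRF (1.16% of windows) were in none of the 6 windows. Sequence more than 250 bases upstream was not searched, so absence from a window does not mean that the gene lacks the element. CCAAT was present in JUN, JUNB and JUND (32% of windows), and TATAAA in FOS, FOSB and JUNB (10.7%). The letters searched were chosen with the sequences in view, and a match describes the sequence only.

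Among the FOS family genes, FOS rose with the combination and with JQ1 and FOSB with the combination (and, with the block of replicate numbers, with JQ1), whereas FOSL1 and FOSL2 passed the test in no comparison. FOS, the founding member, had intensities of 468 and 496 with the combination, 287 and 643 with JQ1 and 67.2 and 76.4 with rapamycin, against 20 and 60.1 in DMSO. The 4 arrays with JQ1 all lay above the 4 without it, and 1 DMSO array stood at the floor. More cells with FOS RNA and more FOS RNA per cell cannot be told apart in such bulk samples. On the non-normalized signals of the same arrays FOS read 652 and 725 with the combination, 428 and 932 with JQ1, 125 and 119 with rapamycin, against 2.55 and 75.5 in DMSO.

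FOSB, a close relative of FOS that is known for a long-lived truncated isoform, had intensities of 256 and 179 with the combination, 82.0 and 137 with JQ1 and 133 and 118 with rapamycin, against 20 and 40.5 in DMSO. Unlike FOS, its 2 rapamycin arrays lay within the range of its 2 JQ1 arrays, and the combination arrays were above all others. The floor again held 1 DMSO array, whose non-normalized signal was 25.3, so that folds over DMSO for FOS and FOSB are set partly by the floor.

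FOSL1, which lacks the strong activation domain of FOS, had intensities of 646 and 491 with the combination, 890 and 525 with JQ1 and 880 and 698 with rapamycin, against 617 and 649 in DMSO. The groups overlapped except that both rapamycin arrays lay above both DMSO arrays and above both combination arrays. FOSL2 had 48.1 and 70.1 with the combination, 55.8 and 61.5 with JQ1 and 51.3 and 66.9 with rapamycin, against 56.0 and 68.7 in DMSO. For FOSL2 no 2 neighbouring groups in the order of means were separated.

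All 3 JUN family genes rose with the combination, and none passed with a single drug, although with the replicate number as a block all 3 passed with JQ1. JUN, the founding member and a strong activator, had intensities of 3977 and 2777 with the combination, 1140 and 1908 with JQ1 and 1011 and 1327 with rapamycin, against 504 and 719 in DMSO. In the order DMSO, rapamycin, JQ1, combination, the arrays of neighbouring groups were separated except between rapamycin and JQ1. JUND, which restrains the proliferation of mouse fibroblasts, had 11685 and 9426 with the combination, 6393 and 9566 with JQ1 and 6451 and 7079 with rapamycin, against 2796 and 4606 in DMSO, and only DMSO was separated from its neighbour. JUNB, a weaker activator that can oppose JUN, had 96.6 and 107 with the combination, 100.1 and 114 with JQ1 and 77.5 and 78.1 with rapamycin, against 61.0 and 55.3 in DMSO. Its 4 groups did not overlap except for the combination and JQ1.

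**Figure D1:**
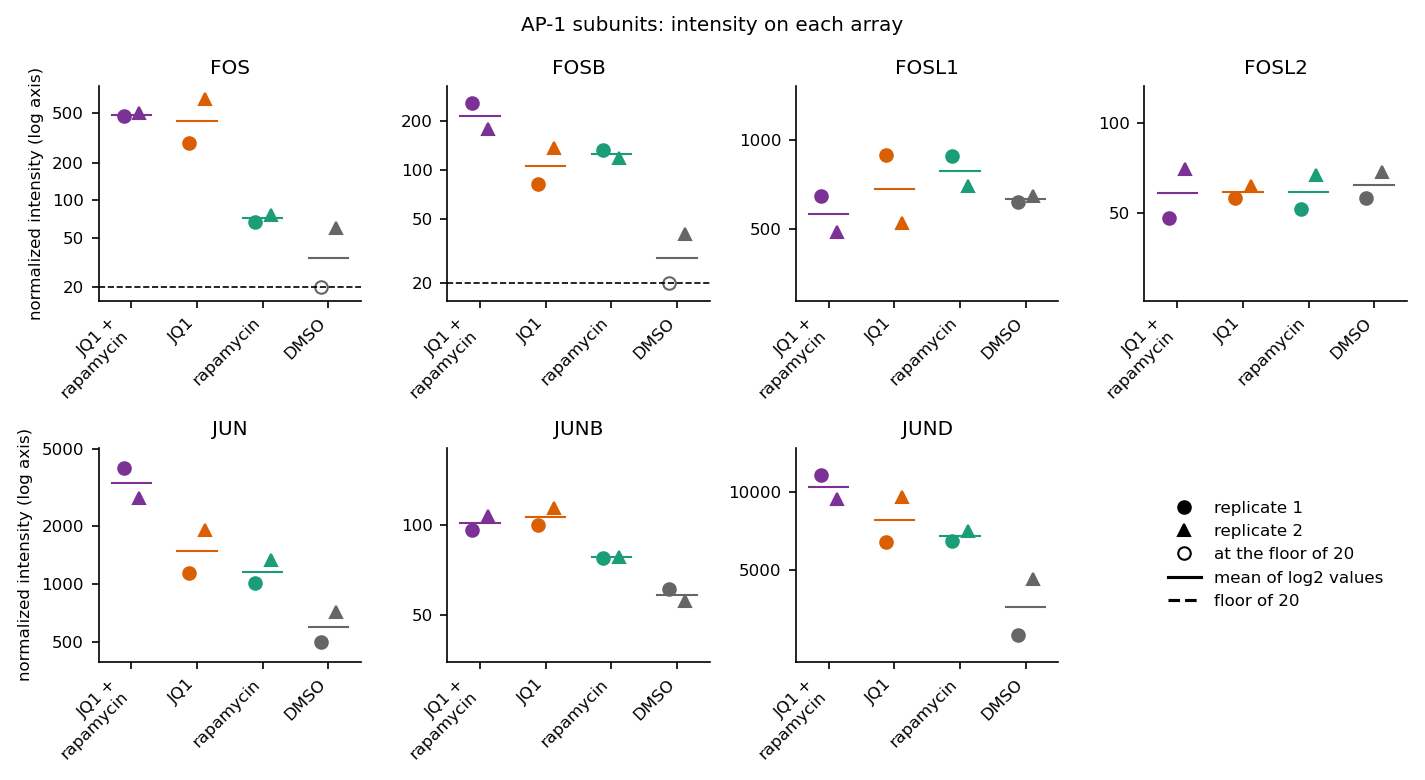
Normalized intensity (log axis) of each AP-1 subunit on the 8 arrays, by group, with replicate 1 as circles and replicate 2 as triangles. The open symbols of FOS and FOSB are DMSO arrays at the floor of 20, and the horizontal bars are means of the log2 values. FOS, FOSB, JUN, JUNB and JUND have both DMSO arrays below every treated array, and FOSL1 and FOSL2 do not. The share of all genes with this pattern was not computed.

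The combination was compared with DMSO over all genes. FOS was higher by 3.80 on the log2 scale (standard error (SE) 0.56, 13.9-fold, adjusted p = 0.0149 by limma), FOSB by 2.91 (SE 0.41, 7.52-fold, adjusted p = 0.0135) and JUN by 2.47 (SE 0.34, 5.52-fold, adjusted p = 0.0135). JUND rose by 1.55 (SE 0.31, 2.92-fold, adjusted p = 0.0354) and JUNB by 0.81 (SE 0.19, 1.75-fold, adjusted p = 0.0484). FOSL1 (-0.17, 95% confidence interval -0.88 to 0.55) and FOSL2 (-0.10, -0.72 to 0.52) did not pass. Thus 5 of the 7 members were called higher and 0 lower, where 2.93% of all 12759 genes were called higher and 4.25% lower. In the same 5 members both combination arrays lay above both DMSO arrays, as in 22.8% of all genes. The median difference of the 7 was 1.55, beside -0.01 over all genes.

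Leaving out 1 array removed calls, also where the array belonged to JQ1 or rapamycin alone. Such an omission leaves the difference from DMSO unchanged and only reduces the arrays behind the estimate of the spread. JUNB and JUND lost theirs in each of the 8 omissions of 1 array, with differences of 0.73 to 0.88 and 1.19 to 1.91. No member was called without replicate 1 of DMSO or without replicate 1 of the combination, while FOS alone was called without replicate 2 of DMSO and JUN alone without replicate 2 of the combination. No member was called with no filter on dim probes, or with only the combination and DMSO in the fit. Without either JQ1 array FOS, FOSB and JUN were called, and without either rapamycin array FOSB and JUN. Omitting replicate 1 of DMSO, whose FOS value is at the floor, gave FOS a difference of 3.003, and omitting replicate 2 gave 4.59. With the array names of the other table's header no member was called, and the share of all genes called under those names is not given for this comparison. The 5 differences were then all positive, with 0.23 for JUNB as the lowest and 1.85 for FOSB as the highest.

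With JQ1 alone FOS was higher by 3.63 (SE 0.56, 12.4-fold, adjusted p = 0.0264), and no other member passed. At 1 of 7 the share called higher stood beside 1.06% of all genes. FOSB (1.89, SE 0.41, adjusted p = 0.0628), JUNB (0.88, SE 0.19, adjusted p = 0.0609), JUN (1.29, SE 0.34, adjusted p = 0.105) and JUND (1.12, SE 0.31, adjusted p = 0.118) missed the threshold, although in each of them both JQ1 arrays lay above both DMSO arrays, as in 5 of the 7 members and 20.2% of all genes. With the replicate number as a block all 5 were called, FOS at an adjusted p of 0.00394, FOSB at 0.0241, JUNB at 0.024, JUN at 0.0404 and JUND at 0.0431, where 4.48% of all genes were called higher in that fit. FOSL1 (0.11) and FOSL2 (-0.08) did not pass in either fit. The call of FOS was lost in all 8 omissions of 1 array (2.84 to 4.43, adjusted p 0.072 to 0.179). Under the array names of the other header the difference was 1.23 and did not pass, where 1 of all 12759 genes was called.

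Rapamycin alone gave 0 called members by limma, where 0.0235% of all genes were called. Without adjustment, 3 of 7 members had a p under 0.05 and were higher, against 5.15% of all genes. These were FOSB (2.14, SE 0.41, adjusted p = 0.187), JUND (0.91, SE 0.31, adjusted p = 0.394) and JUN (0.94, SE 0.34, adjusted p = 0.418). FOS had a difference of 1.05 (95% confidence interval -0.28 to 2.37), which was 0.25 when replicate 1 of DMSO was omitted and 1.84 when replicate 2 was. JUNB differed by 0.42 (-0.02 to 0.86), FOSL1 by 0.31 and FOSL2 by -0.08. In 6 of 7 members both rapamycin arrays lay above both DMSO arrays, which held for 18% of all genes. No member was called with the replicate block. The 3 treatments were compared with the same 2 DMSO arrays, so their differences are not independent.

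**Figure D2:**
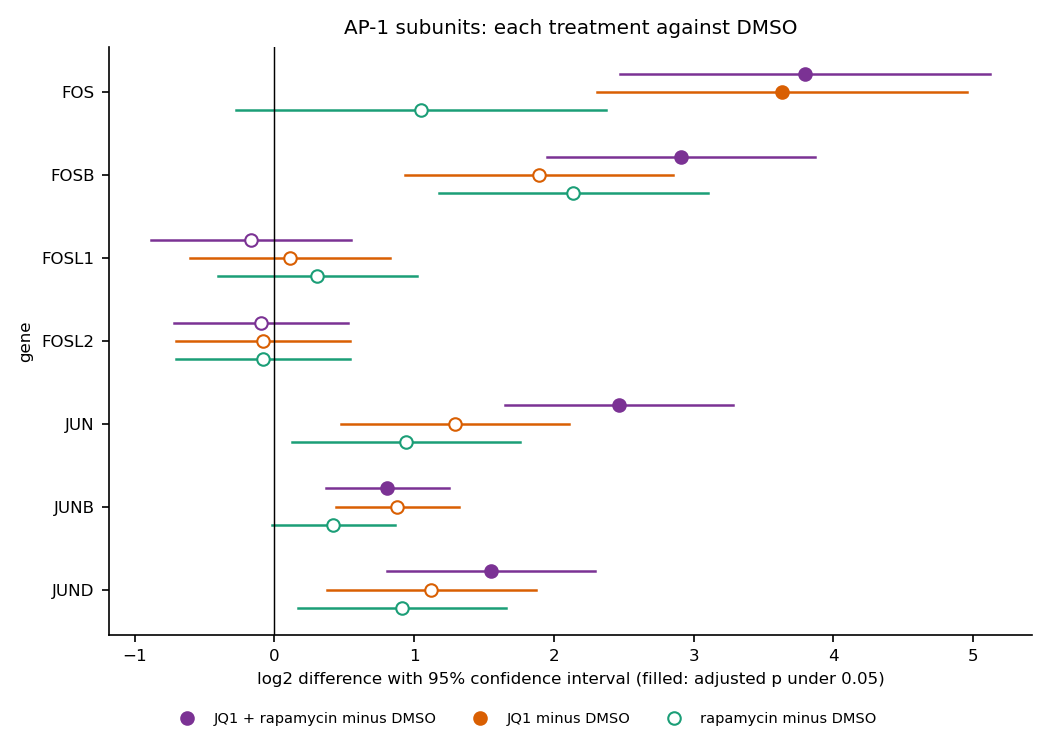
Log2 difference from DMSO of each AP-1 subunit with its 95% confidence interval, for the combination, JQ1 and rapamycin; filled symbols passed an adjusted p of 0.05. Of the 7 members 5 are filled for the combination, FOS alone for JQ1 and none for rapamycin, while FOSL1 and FOSL2 lie near 0 in all 3.

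The study asks whether the drugs act jointly, and the combination was therefore set against each drug. Against JQ1 no member was called by limma, nor was any of the 12759 genes (0%). Unadjusted, 2 of 7 members had a p under 0.05, both higher, against 4.01% of genes. They were JUN, with a difference of 1.17 (SE 0.34, adjusted p = 0.46), and FOSB, with 1.02 (SE 0.41, adjusted p = 0.577), and in both of them the 2 combination arrays lay above the 2 JQ1 arrays (14.9% of genes). FOS differed by 0.17, with a 95% confidence interval of -1.16 to 1.49, and JUNB by -0.07 (-0.51 to 0.37). With the names of the other header the differences of JUN and FOSB were -0.06 and -0.34.

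Against rapamycin, FOS was 2.75 higher with the combination (SE 0.56, adjusted p = 0.056) and JUN 1.52 higher (SE 0.34, adjusted p = 0.0706). Neither passed, and 0 of 7 members were called where 2.62% of all genes were; the count at an unadjusted p under 0.05 was 2, both higher, against 7.3% of genes. With the replicate block both passed, FOS at an adjusted p of 0.0092 and JUN at 0.0247, where 4.27% of all genes were called higher. In 5 members both combination arrays lay above both rapamycin arrays (19.6% of genes), and in FOSL1 both lay below (23.8%). With the names of the other header the difference of FOS was -0.01.

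The interaction, by which the response to JQ1 in the presence of rapamycin exceeds that in its absence, was called for none of the 7 members and none of the 12759 genes by limma (0%), and no member had an unadjusted p under 0.05 (3.51% of genes). Its estimates were -0.88 for FOS (95% confidence interval -2.75 to 0.99), -1.12 for FOSB (-2.48 to 0.24) and 0.23 for JUN (-0.93 to 1.38). For JUNB it was -0.49 (-1.12 to 0.13), for JUND -0.49 (-1.54 to 0.57), for FOSL1 -0.59 (-1.60 to 0.42) and for FOSL2 0.07 (-0.81 to 0.95). The intervals of FOS and FOSB were the widest of the 7.

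**Figure D3:**
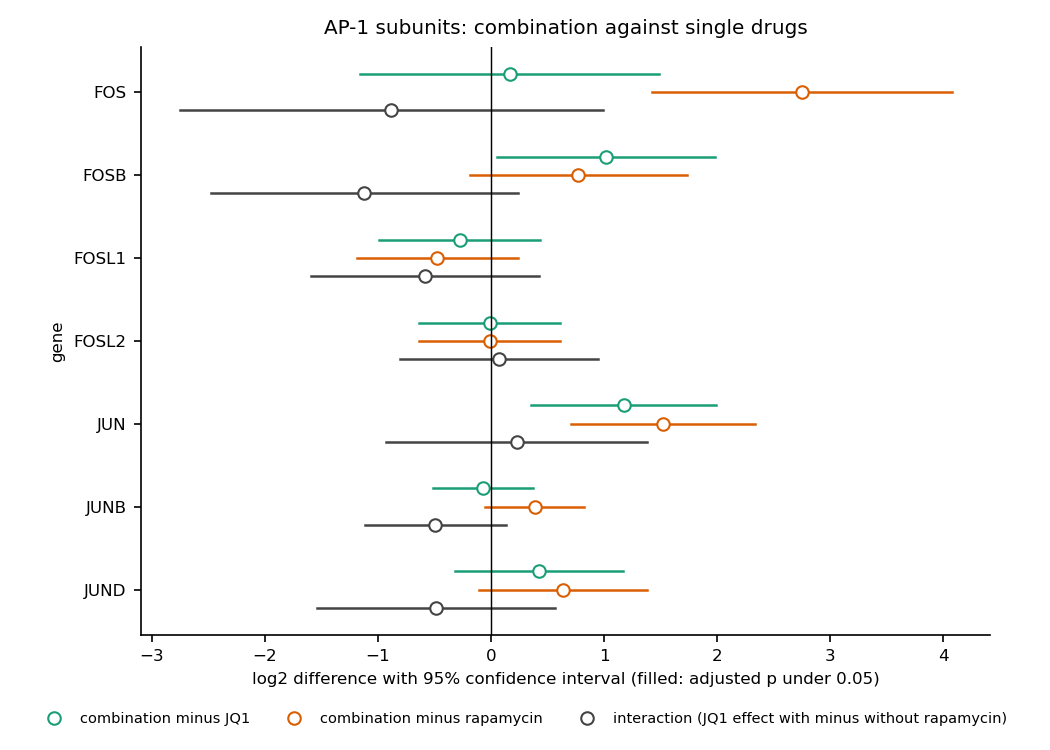
Log2 difference of the combination from JQ1 and from rapamycin, and the interaction, for each AP-1 subunit with 95% confidence intervals. No symbol is filled; the intervals of JUN lie above 0 against both single drugs, and all intervals of the interaction include 0.

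Across the 8 arrays the 5 members that rose with the combination followed each other. This is given as a description, since the arrays form 4 groups that share treatments and the 5 were picked by their rise on these same arrays. Pearson correlations of log2 values among FOS, FOSB, JUN, JUNB and JUND lay between 0.77 (FOSB with JUNB) and 0.97 (FOSB with JUND). FOSL1 correlated with these 5 at -0.36 to -0.09 and FOSL2 at -0.17 to -0.01. Among all genes tested, those closest to FOS over the 8 arrays were STK40, HES6 and PLCG2 (0.98 to 0.99). For FOSB they were FAM107B, PNPLA8 and ULK1 (0.99), and for JUN they were RN7SK, RGS2 and UBTD2 (0.98 to 0.99). SLC31A1, CEP68 and C21orf91 were closest to JUNB (0.99), and EGR1, ULK1 and LYSMD4 to JUND (0.98).

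Other bZIP proteins that can pair with AP-1 subunits were examined as a list, of which 11 of 15 genes were tested. With the combination 2 rose and 1 fell (median 0.38), beside 2.93% of all genes called higher and 4.25% called lower, and with the replicate block 3 were called higher and 2 lower. MAFF, a small MAF protein without an activation domain, had intensities of 321 and 183 with the combination, against 75.3 and 70.4 in DMSO (log2 1.74, SE 0.29, adjusted p = 0.0209). ATF3, a stress-induced factor, had 1273 and 201, against 26.8 and 45.7 in DMSO (3.85, SE 0.81, adjusted p = 0.0387). Leaving out replicate 1 of the combination brought its difference to 2.52, and leaving out replicate 2 brought it to 5.19. ATF2, which dimerises with JUN, had 62.4 and 67.4, against 131 and 137 in DMSO (-1.04, SE 0.19, adjusted p = 0.0268). None of the 11 was called with JQ1 or rapamycin alone (medians 0.16 and 0.56). With JQ1 the replicate block called 1 lower, beside 1427 of all 12759 genes called either way. Of these 3 calls MAFF was kept in 3 of the 8 omissions of 1 array, ATF2 in 2 and ATF3 in 1. Under the array names of the other header the differences were 0.999 for MAFF, 2.35 for ATF3 and -0.68 for ATF2, and none passed. With the mean of the gene's probes MAFF was at 1.19 (adjusted p = 0.177).

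Of the kinases and ternary complex factors upstream of FOS and JUN, 21 of 26 were tested, and MAP2K3, a kinase that activates p38, was the only one called, against 2.93% of all genes higher with the combination and 1.06% with JQ1. With the replicate block 3 genes of the list were called higher with the combination and 3 with JQ1. That fit called 4.48% of all genes higher with JQ1, and at most 2416 of 12759 either way with the combination. The intensities of MAP2K3 were 1592 and 1401 with the combination, 972 and 1200 with JQ1 and 446 and 416 with rapamycin, against 322 and 286 in DMSO. The difference from DMSO was 2.30 for the combination (SE 0.20, adjusted p = 0.00403) and 1.83 for JQ1 (SE 0.20, adjusted p = 0.0117), and the combination exceeded rapamycin by 1.79 (SE 0.20, adjusted p = 0.0144). In 7 of the 8 omissions of 1 array the first of these stayed called, and in 4 of 8 the others. Under the array names of the other header the 3 differences were 0.45, 0.59 and 0.38, and none passed. With the mean of the gene's probes the JQ1 difference was 1.15 (adjusted p = 0.0847) and that from rapamycin 1.27 (adjusted p = 0.0658). The median of the list was 0.13 with the combination, 0.13 with JQ1 and 0.00 with rapamycin.

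Among 8 tested regulators of AP-1 protein (of 10 listed), SIRT1, a deacetylase, was called. Of all genes, 2.93% were called higher with the combination and 1.06% with JQ1. SIRT1 had 303 and 388 with the combination and 346 and 415 with JQ1, against 155 and 155 in DMSO (log2 1.15, SE 0.21, adjusted p = 0.0278, and 1.29, SE 0.21, adjusted p = 0.0317). SIRT1 kept its call in 2 of 8 omissions with the combination and in none with JQ1. Under the array names of the other header its differences were 0.30 with the combination and 0.0264 with JQ1, and neither passed. With the replicate block 1 gene of the list was also called lower in each of these comparisons. That fit called 1427 of all 12759 genes either way with JQ1 and at most 2416 with the combination. Genes of this list with no call had differences on both sides of 0, and the medians were -0.17 with the combination, 0.06 with JQ1 and 0.04 with rapamycin.

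Genes described as AP-1 targets were called in both directions with the combination. Of 40 listed, 35 were tested. With the combination 6 rose and 3 fell (median 0.00), beside 2.93% of all genes higher and 4.25% lower. With JQ1 0 were called higher and 3 lower (median -0.06), beside 1.06% and 1.77% of all genes, and with rapamycin none was called (median 0.10). With the replicate block the JQ1 counts became 5 higher, among them IL11 (adjusted p = 0.00702), HBEGF (0.0105), DUSP1 (0.0239) and MMP1 (0.0445), and 4 lower, with IL6 (0.0045) added. That fit called 4.48% of all genes higher with JQ1, and 1427 of 12759 either way. In the comparison of the combination with rapamycin 2 were called higher and 2 lower, beside 2.62% of all genes called either way. With the block these counts were 6 and 5, beside 4.27% of all genes called higher and at most 1445 of 12759 either way. The interstitial collagenase MMP1 had 156 and 178 with the combination, against 33.6 and 43.5 in DMSO (log2 2.13, SE 0.24, adjusted p = 0.00825). The phosphatase gene DUSP1, which encodes an inactivator of the MAP kinases, had 1916 and 1235, against 227 and 363 in DMSO (2.42, SE 0.30, adjusted p = 0.0105). MMP10 had 70.5 and 68.6 with the combination while both DMSO arrays stood at the floor, so it was at least 3.48-fold higher (adjusted p = 0.0203). IL11, a cytokine of the IL6 family, had 3524 and 1883, against 776 and 481 in DMSO (2.08, SE 0.43, adjusted p = 0.037), and it was called in none of the 8 omissions of 1 array. MMP1 and DUSP1 kept their calls in 5 of these 8 and MMP10 in 2. Under the array names of the other header MMP1 differed by 0.99, DUSP1 by 0.98 and MMP10 by 1.63, and none passed.

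Lower genes in the same list included S100A2, a calcium-binding protein, which stood at the floor on both arrays of the combination and of JQ1, against 49.9 and 50.7 in DMSO (at least 2.52-fold lower in each, adjusted p = 0.0211 and 0.0323). The cytokine LIF had 20 and 27.9 with the combination and 24.7 and 20 with JQ1, against 54.4 and 75.3 in DMSO (log2 -1.44, adjusted p = 0.0328, and -1.53, adjusted p = 0.0444). With rapamycin LIF had 143 and 192, and the combination was 2.81 below rapamycin on the log2 scale (-2.81, SE 0.28, adjusted p = 0.0144). Since 1 array of the combination and 1 of JQ1 stood at the floor, the size of these LIF differences is limited by it, and with an offset of 50 those from DMSO were -0.63 with the combination and -0.66 with JQ1 and did not pass. IL6 was also lower in that comparison, with 29.0 and 20 for the combination, against 210 and 106 for rapamycin (-2.63, SE 0.39, adjusted p = 0.0255). The array at 20 is at the floor, which limits the size of this difference. HBEGF, a ligand of the EGF receptor, had 1758 and 1068 with the combination, against 393 and 191 with rapamycin (2.32, SE 0.42, adjusted p = 0.0428), and MMP1 was 1.49 higher there (SE 0.24, adjusted p = 0.0326). Against DMSO the calls of the combination beyond the 6 of smallest p were IL6 (-1.74, adjusted p = 0.0441), HBEGF (1.87, adjusted p = 0.0452) and CCN2 (3.15, adjusted p = 0.0484). These were not followed through the other settings. The integrin gene ITGA2 had 1055 and 1184 with JQ1, against 2385 and 2539 in DMSO (-1.14, SE 0.18, adjusted p = 0.0297). When 1 array at a time was omitted, ITGA2, IL6, HBEGF and MMP1 (against rapamycin) lost their calls in 8 of 8 cases, as did LIF against DMSO in both treatments. LIF against rapamycin kept its call in 4 of 8, and S100A2 in 4 of 8 with the combination and in 2 of 8 with JQ1. Under the array names of the other header the signs turned for ITGA2 with JQ1 (0.46), for LIF with JQ1 (0.55), with the combination (0.996) and against rapamycin (0.91), for IL11 with the combination (-0.55), and for IL6 (0.32) and HBEGF (-0.36) against rapamycin. S100A2 then differed by -0.39 with the combination and by -0.66 with JQ1, and MMP1 by 0.71 against rapamycin, and none passed.

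**Figure D4:**
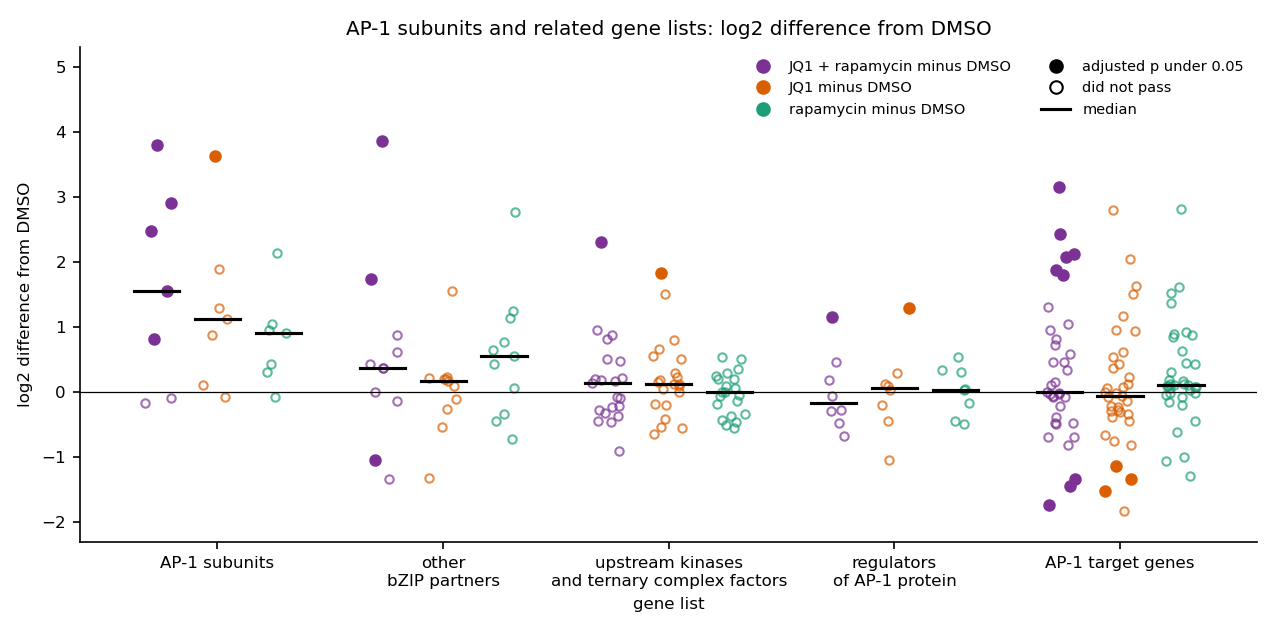
Log2 difference from DMSO of every tested gene of 5 lists, for the combination, JQ1 and rapamycin; filled points passed an adjusted p of 0.05 and bars are medians. The AP-1 subunits have medians of 1.55, 1.12 and 0.91, whereas the AP-1 target genes have medians of 0.00, -0.06 and 0.10, with called target genes on both sides of 0 for the combination and below 0 for JQ1.

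**Figure D5:**
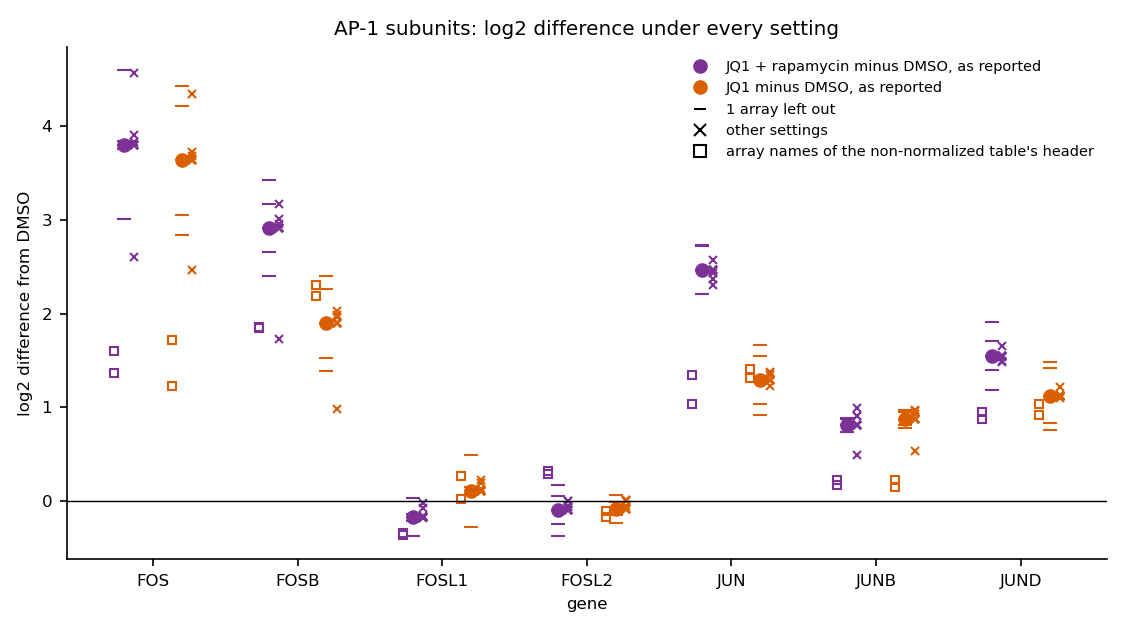
Log2 difference from DMSO of each AP-1 subunit under every processing setting, for the combination and for JQ1. The differences of FOS, FOSB, JUN, JUNB and JUND stay above 0 in every setting plotted, including the squares, which use the array names of the non-normalized table's header, and those of FOSL1 and FOSL2 lie on both sides of 0 in both comparisons.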

How the data were processed

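Biotin-labelled cRNA of total RNA was hybridised to 8 arrays whose probe identifiers are Illumina's, although the series' design text names another maker. The authors deposited linear probe intensity in 2 tables, as non-normalized signal (28.3% to 30.3% of values below 0) and as normalized intensity with a floor of 20. The sources used here give neither normalization method nor software nor build. The normalized table was used, because the header of the other names 6 arrays differently.

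Values were taken to log2. Of 47304 probes 30102 carried 1 symbol and 8 several. For 30063 probes with 1 symbol the gene identifier was found in RefSeq's GRCh38.p14 gene table, and the symbol given there was used, changed or not. Probes above 20 on at least 2 arrays entered (23860), and the brightest probe stood for each of 12759 genes. All 8 arrays entered 1 fit of 4 group means with limma 3.58.1 in R 4.3.3 (4 residual and 2.92 prior degrees of freedom). A gene was called at a Benjamini-Hochberg adjusted p under 0.05. The code was run on simulated data with independent noise on each array, to check the size and sign of planted differences. The error rate of the calls in the real arrays was not tested by it. A fold against a group wholly at the floor is a bound, taken against the floor itself. The number of arrays, 2 per group, limits the precision.

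Deviations of same-numbered arrays from their group means correlated at 0.42 to 0.55 in all 6 pairs of groups, so same-numbered arrays shared part of their deviation. Values with the number as a block are given where they change the call of a member or the counts of a list. The header of the non-normalized table assigns the replicate 2 arrays of every group to rapamycin, alone or with JQ1, and no replicate 1 array. Under that naming the block would be the presence of rapamycin. Pairing and treatment cannot then be told apart, and this was not resolved. Members and lists were chosen with earlier results of these data known. All members were named, with up to 6 called genes of each other list per comparison by smallest p and, for each called member, the 3 genes of highest correlation. Further target genes called with the combination are given by their difference only. Alternatives changed the probe rule, filter, normalization, offset, table, block, variance, weights, groups fitted, threshold and arrays. For the non-normalized table values under 16 were set to 16 before log2 and quantile normalization. One alternative, the value table with the names of the other header, was added after the tables were seen.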

Additional observations from a re-analysis of the deposited data

Results flagged for a closer look

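The estimated effect of rapamycin on JUNB and on FOSL1 had opposite signs in the presence and absence of JQ1, in both replicate pairs. Rapamycin on top of JQ1 gave log2 differences of -0.05 and -0.09 for JUNB, against 0.35 and 0.50 for rapamycin without JQ1, and the change of the effect was -0.49. For FOSL1 these were -0.46 and -0.10 with JQ1, against 0.51 and 0.10 without it, and the change was -0.59. Tested as an interaction, neither passed (adjusted p = 0.999 for both by limma). The pattern was looked for in all 7 members and for both drugs, and its share over all genes was not computed. On top of JQ1 the JUNB difference turned to 0.0227 without replicate 2 of JQ1 and to 0.00198 without replicate 1 of the combination. That of FOSL1 turned to 0.10 without replicate 1 of JQ1.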

How the results depend on the processing

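The number of AP-1 subunits called depended on processing. Against DMSO the combination gave 5, which became 0 with no filter on dim probes, 3 (JUN, JUNB and JUND) with probes above the floor on all arrays, where FOS and FOSB were not measured, 0 with the non-normalized table under its own header, 0 with the value table under that header's names, 0 with only the groups compared in the fit, 0 at an adjusted p under 0.01, and 0 to 3 when 1 array was left out. JQ1 gave 1, which became 0 under each of those settings and in every omission of 1 array, 3 with median centring, 2 with quantile normalization, 5 with the replicate block and 3 at an adjusted p under 0.1. The combination against rapamycin gave 0, which became 1 (FOS) with median centring or an offset of 50, 2 (FOS and JUN) with the replicate block, with a trended robust variance, or at an adjusted p under 0.1. Rapamycin against DMSO, the combination against JQ1 and the interaction gave 0 members in each setting run. The replicate block changed no other member's call. None of the other list genes followed through the settings passed when only the groups compared entered the fit, and each kept its call under the block. The cause of these changes was not tested, except that fewer arrays or genes enter some settings by construction.

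All genes called numbered 361 for JQ1 against DMSO (0 to 163 with 1 array left out), 3 for rapamycin (0 to 4), 916 for the combination (0 to 555) and 334 for the combination against rapamycin (0 to 73), and over the other settings 0 to 1427, 0 to 44, 0 to 2416 and 0 to 1445. For the combination against JQ1 and for the interaction they numbered 0, with 0 to 18 over the other settings.

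Log2 differences changed sign as follows, and the cause was not tested. FOSL2 turned with median centring to 0.00597 (JQ1 against DMSO), 0.00565 (combination against DMSO) and 0.0676 (combination against rapamycin), and with quantile normalization to 0.0160, 0.00618 and 0.0735. On the non-normalized table under the names of the value table FOSL2 became 0.00948 for JQ1, 0.12 for rapamycin and -0.19 for the interaction, JUNB 0.0610 for the combination against JQ1, and JUN -0.0250 for the interaction. On the non-normalized table under its own header, ITGA2 became 0.44 and LIF 0.29 for JQ1 against DMSO, FOSL1 -0.32 and FOSL2 0.16 for rapamycin, and FOSL2 0.32, LIF 0.65 and IL11 -0.48 for the combination. There the combination against JQ1 gave FOS -0.12, FOSB -0.45, FOSL2 0.42, JUN -0.28 and JUND -0.0503, the combination against rapamycin gave FOSL2 0.16, LIF 0.78, IL6 0.11 and HBEGF -0.50, and the interaction of JUN was -0.73. On the value table under that header, the values were 0.46 for ITGA2 and 0.55 for LIF (JQ1), -0.34 for FOSL1 and 0.22 for FOSL2 (rapamycin), and 0.29 for FOSL2, 0.996 for LIF and -0.55 for IL11 (combination). There the combination against JQ1 gave FOSB -0.34, FOSL2 0.46, JUN -0.0631, JUNB 0.0787 and JUND -0.0880, the combination against rapamycin gave FOS -0.0147, FOSL1 0.0033, FOSL2 0.0750, LIF 0.91, IL6 0.32 and HBEGF -0.36, and the interaction was -0.69 for JUN and 0.0543 for JUNB.

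With 1 array left out, signs also changed within these ranges. For JQ1 against DMSO FOSL1 ran from -0.27 to 0.49 and FOSL2 from -0.23 to 0.0658, and for rapamycin FOSL2 ran from -0.27 to 0.11. For the combination against DMSO FOSL1 ran from -0.37 to 0.0301 and FOSL2 from -0.37 to 0.18. For the combination against JQ1 FOS ran from -0.42 to 0.75, FOSL1 from -0.66 to 0.10, FOSL2 from -0.29 to 0.26 and JUNB from -0.17 to 0.0227. For the combination against rapamycin FOSL2 ran from -0.29 to 0.26, and for the interaction FOSL2 from -0.20 to 0.34 and JUN from -0.14 to 0.60. Where an omission left a group with 1 array, that array was assumed to vary like the other groups. With 2 arrays a group and values at the floor for FOS and FOSB in DMSO, the precision is set by the number of arrays.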
